A study of Mus musculus with 10 samples.

Results

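The 37 genes that the files place on the mitochondrial chromosome (MT) were examined among the 41388 genes listed for liver RNA-seq. They were taken by their chromosome entry alone, and comprised 13 protein-coding genes, 2 rRNA genes and 22 tRNA genes. All 37 had the same coordinates and strand in the GENCODE M21 annotation of GRCm38. One library was made from each of 10 livers of C57B/6J mice aged 12 wk, which fall into 3 groups. WT refed (n = 2) were NAMPT fl/fl mice fasted for 22 h and then refed for 2 h, whereas WT fasting (n = 3) were NAMPT fl/fl mice fasted for 24 h. NAMPT LKO fasting (n = 5) mice were fasted for 24 h and lack Nampt, the rate-limiting enzyme of NAD+ salvage, in hepatocytes through Albumin-cre, so that other liver cells keep the gene. The fl/fl alleles were shared by all groups, and the fasts used aspen bedding. The study's own text gives a shorter fast and controls fed at random, and the durations printed here are those of the labels.

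Mitochondrial DNA encodes core subunits of complexes I, III and IV of the respiratory chain and of the ATP synthase (complex V), together with the rRNAs and tRNAs needed to translate them. It is transcribed from both strands as long precursors that are cut mostly at the tRNAs lying between the other genes. Liver oxidizes fatty acids in mitochondria during fasting, and hepatocytes are rich in these organelles. These libraries were made from polyadenylated RNA and read as single 50-base reads, so levels of tRNAs, which are short and carry no long poly(A) tail, are not levels of the tRNA pool.

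Total counts per library ranged from 30603080 to 43434139. Nampt had 80.5 and 69.7 CPM (counts scaled to the library total) in WT refed livers, 63.2, 69.7 and 143 CPM in WT fasting livers and 12.0 to 13.9 CPM in NAMPT LKO fasting livers, and the LKO values lay below all others. Summed CPM of 6 hepatocyte markers was 61941 to 96650 across libraries. Summed CPM of 5 cholangiocyte markers was 34.6 to 51.0 in NAMPT LKO fasting livers against 15.2 to 21.2 in WT fasting and 20.7 to 23.1 in WT refed livers. For 4 exocrine pancreas markers, of which 1 exceeded 1 CPM in any library, it was 3.59 to 5.28, 6.16 to 6.70 and 6.83 to 7.40 in that order. For 5 stellate cell and fibroblast markers it was 170 to 252, 145 to 186 and 149 to 151. The part of these differences in the results below was not tested. Summed CPM of 5 markers of mitochondria-rich muscle was at most 1.90, with Mb at 0 in all libraries. Fewer cells of a type and less RNA per cell cannot be told apart in whole liver.

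Sequences are shown here for 3 mitochondrial genes whose reads can be shared with a nuclear copy, because this bears on the levels given for them and for the genes listed with such copies below. A run of 7 annotated pseudogenes on the minus strand of chromosome 1 (GRCm38, chr1:24611535-24616197) repeats the mitochondrial stretch from mt-Co1 to mt-Nd4. Bases 1 to 60 of mt-Co2 (MT:7013-7072, plus strand) and of its copy Gm28661 (chr1:24615506-24615565, minus strand) are identical, with capitals marking the shared bases.
mt-Co2: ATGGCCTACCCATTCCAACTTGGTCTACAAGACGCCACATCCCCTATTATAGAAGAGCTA
Gm28661: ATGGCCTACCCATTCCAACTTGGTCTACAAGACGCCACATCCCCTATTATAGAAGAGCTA
The first 60 bases of mt-Nd3 (MT:9459-9518, plus strand) and of Gm28438 (chr1:24613060-24613119, minus strand) differ at the base in capitals, T3C counted from the first base of mt-Nd3, which was the one difference over 345 aligned bases.
mt-Nd3: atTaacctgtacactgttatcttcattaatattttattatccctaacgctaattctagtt
Gm28438: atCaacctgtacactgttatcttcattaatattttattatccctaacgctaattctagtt
In mt-Nd4 the copy Gm28439 ends within the gene, and bases 837 to 916 (MT:11003-11082, plus strand) are shown with the bases also in Gm28439 in capitals.
mt-Nd4: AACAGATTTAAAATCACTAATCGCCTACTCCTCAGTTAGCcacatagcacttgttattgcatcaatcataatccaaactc

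The mitochondrial genes together took 12.5% and 12.0% of all counts in WT refed livers. In WT fasting livers the share was 11.0%, 11.6% and 7.42%. In NAMPT LKO fasting livers it was 10.6%, 12.8%, 10.4%, 12.9% and 21.1%. The 3 groups overlapped, library 5 of the NAMPT LKO fasting group stood above all others and library 3 of the WT fasting group below all others. The group values were 12.3% ± 0.366 (SD, n = 2), 9.99% ± 2.25 (SD, n = 3) and 13.5% ± 4.40 (SD, n = 5). The median of the other 4 NAMPT LKO fasting libraries was 11.7%. Library 5 also differed from the rest in base composition: across 13354 nuclear genes, the rank correlation of its deviation with GC content was -0.563, against -0.0319 to 0.264 in the other 9 libraries, as a description. The part of GC content in its mitochondrial share was not tested.

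**Figure D1:**
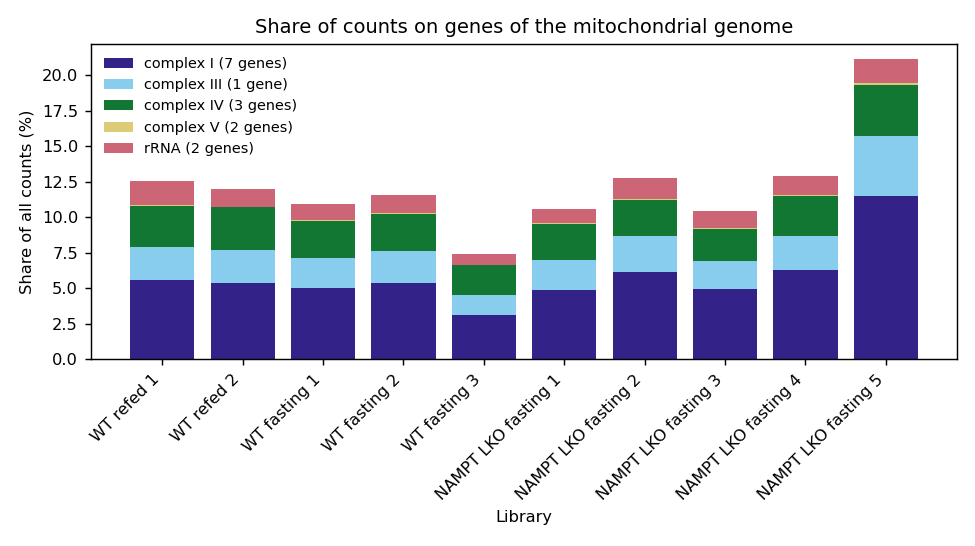
Share of all counts (%, bar height) on the mitochondrial genes in each library, stacked by respiratory complex and rRNA, with tRNA genes too low to draw. Bars stand at 7.42% to 12.9% except NAMPT LKO fasting library 5, at 21.1%.

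By class, protein-coding genes took 6.63% to 19.4% of all counts, the rRNA genes 0.781% to 1.70% and the tRNA genes 0.00236% to 0.00364%. Complex I, the NADH dehydrogenase with 7 of the 13 coding genes, took 50.1% and 51.0% of the mitochondrial coding counts in WT refed livers, 51.3%, 51.9% and 46.6% in WT fasting livers and 51.0% to 59.0% in NAMPT LKO fasting livers. Complex III, represented by mt-Cytb alone, ran from 20.98% to 22.30% over all 10 libraries. Complex IV, the cytochrome c oxidase, took 26.6% and 27.9% in WT refed, 27.2%, 25.7% and 31.2% in WT fasting and 18.7% to 26.2% in NAMPT LKO fasting livers. The ATP synthase genes mt-Atp6 and mt-Atp8 took 0.420% to 0.616%. These are shares of counts, which grow with gene length.

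Levels per length were compared in RPKM (CPM divided by gene length in kilobases). mt-Cytb, the cytochrome b of complex III, was at 20745 and 20129 RPKM in WT refed, 17968, 19616 and 12527 in WT fasting, and 16908 to 36870 in NAMPT LKO fasting livers (median 21181). mt-Nd2, a complex I subunit, was at 16115 and 14600 RPKM in WT refed, 17231, 18362 and 9947 in WT fasting, and 16235 to 40913 in NAMPT LKO fasting livers (median 21282). mt-Co1, the catalytic subunit of complex IV, was at 18281 and 19061 RPKM in WT refed, 16932, 16769 and 13084 in WT fasting, and 14513 to 23001 in NAMPT LKO fasting livers (median 16274). These 3 genes and mt-Nd1 had the highest levels, their ranges across libraries overlapped, and library 5 held the top LKO value of each. mt-Nd1, another complex I subunit, was at 15000 and 15926 RPKM in WT refed, 12153, 12914 and 7795 in WT fasting and 11333 to 27905 in NAMPT LKO fasting livers. In RPKM, mt-Nd5 and mt-Nd4, complex I subunits encoded further along, were at 3376 to 13046 and 3812 to 10862.

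mt-Nd6, the one coding gene on the minus strand (MT:13552-14070), was at 3107 to 12537 RPKM, and its ratio to the neighbouring mt-Nd5 in RPKM was 0.917 to 1.08 in all 10 libraries. The 2 genes overlap by 14 bases on opposite strands. Whether counting used the strand is not given in the sources used here, so reads of either strand may be in both values. mt-Rnr1 and mt-Rnr2, the rRNAs of the small and large mitochondrial ribosomal subunits, were at 2323 to 5388 and 3535 to 7920 RPKM. Both rRNA levels lay below those of mt-Nd1, mt-Nd2, mt-Co1 and mt-Cytb in each group's median. The libraries were made from polyadenylated RNA, so these read levels do not rank the rRNA pool against the mRNAs. The effect of that selection on rRNA and mt-Nd6 reads was not tested.

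**Figure D2:**
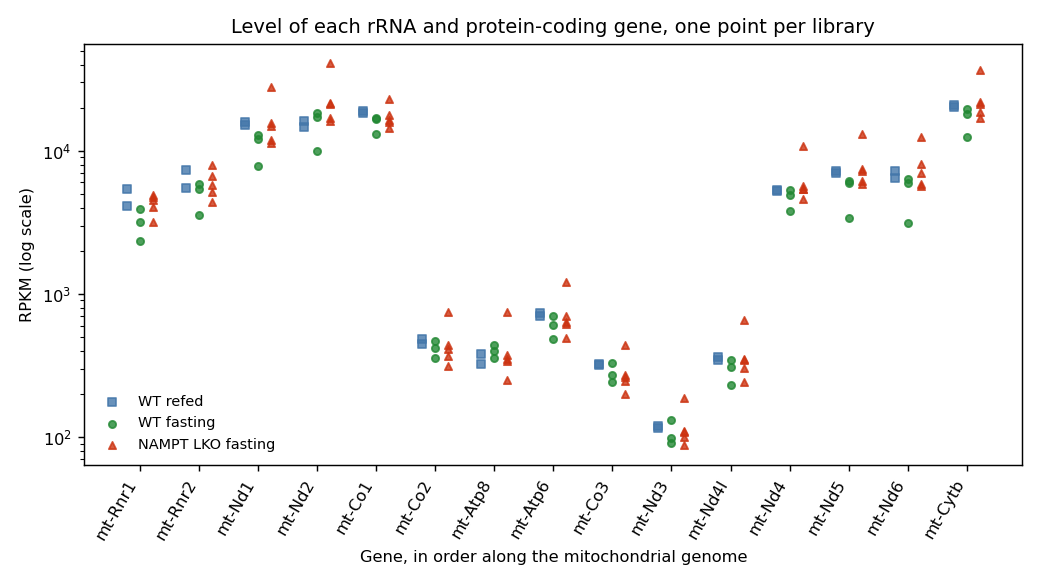
RPKM (log scale) of the 2 rRNA and 13 protein-coding genes in order along the mitochondrial genome, with each point a library, squares WT refed, circles WT fasting and triangles NAMPT LKO fasting. The 6 genes from mt-Co2 to mt-Nd4l lie between 87.4 and 1214 RPKM and the other 7 coding genes between 3107 and 40913 RPKM.

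A run of 6 contiguous coding genes, mt-Co2, mt-Atp8, mt-Atp6, mt-Co3, mt-Nd3 and mt-Nd4l (MT:7013-10173), stood at 87.4 to 1214 RPKM in all libraries, below the 3107 to 40913 RPKM of the other 7 coding genes. This group was recognised after its values were seen and is described without a test. In RPKM, mt-Co2 and mt-Co3, both core subunits of complex IV beside mt-Co1, were at 316 to 747 and 199 to 440. mt-Atp6, the channel subunit of the ATP synthase, was at 481 to 1214 RPKM, and mt-Atp8, whose gene overlaps it by 43 bases, was at 251 to 747 RPKM. The complex I subunits mt-Nd3 and mt-Nd4l were at 87.4 to 188 and 232 to 654 RPKM. Together these 6 genes held 0.936% to 1.46% of the mitochondrial coding counts.

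The sequence shared with other annotated transcripts was high over the same stretch. Of all 50-base windows of mt-Co2, 100.0% occurred in a transcript annotated elsewhere, and the share was 99.5% for mt-Atp6, 99.9% for mt-Co3, 98.0% for mt-Nd3 and 98.8% for mt-Nd4l. It was 62.2% for mt-Nd4, 51.1% for mt-Co1, 8.19% for mt-Nd2, 7.61% for mt-Nd5 and 1.04% for mt-Rnr2. For mt-Nd1, mt-Cytb, mt-Nd6, mt-Rnr1 and mt-Atp8 it was 0.0%. mt-Atp8, which lies between mt-Co2 and mt-Atp6, was low and had no annotated match. The chromosome 1 run has 233 bases with no annotation between Gm10925, the copy of mt-Atp6, and Gm28661, the copy of mt-Co2. No genome sequence was used here to search them. Whether they hold a copy of mt-Atp8 was therefore not tested, and its 0.0% covers annotated transcripts only. The authors state that they counted reads aligned to a single place, a rule under which a read within a window present in both places is lost. Copies identical to their gene held counts all the same, as given below. How such reads were assigned was not tested, and the levels of these genes are uncertain.

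The copies themselves held counts. In the 7 chromosome 1 copies together, the level was 2483 and 2407 CPM in WT refed, 1987, 2491 and 2091 in WT fasting and 1677 to 4268 in NAMPT LKO fasting livers. This was above the 861 to 2094 CPM summed over the 6 low mitochondrial genes in every library, but the sets do not match. The copies include Gm29216 of mt-Co1 (380 to 897 CPM) and Gm28439 of mt-Nd4 (201 to 561 CPM), and mt-Atp8 has no annotated copy. Relative to the CPM of its own gene, Gm10925 of mt-Atp6 was at 176% to 229% and Gm28438 of mt-Nd3 at 95.6% to 144%. Gm28437 of mt-Co3 was at 95.2% to 120%, Gm28661 of mt-Co2 at 87.8% to 111% and Gm10222 of mt-Nd4l at 48.7% to 61.5%. Gm10925, which matches mt-Atp6 at each of 678 aligned bases, held 623 to 1789 CPM, and Gm28661, identical to mt-Co2 over 681 bases, held 204 to 463 CPM. Gm29216 differed from mt-Co1 by A1066T, counted along mt-Co1, over 483 aligned bases. Library 5 of the NAMPT LKO fasting group had the highest value of each of these 7 copies, as it did of each of the 13 coding genes.

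Transfer RNA genes held few counts: 11575 over 10 libraries, of which 10691 (92.4%) fell on mt-Tp, the proline tRNA gene. Its sequence (MT:15356-15422, minus strand, GRCm38) is shown because it is the tRNA gene with most reads, with the anticodon in capitals.
mt-Tp: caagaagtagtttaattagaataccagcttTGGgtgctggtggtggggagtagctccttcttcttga
mt-Tp was at 33.1 and 29.9 CPM in WT refed livers, 32.1, 26.7 and 21.8 CPM in WT fasting livers and 21.7 to 33.8 CPM (median 25.4) in NAMPT LKO fasting livers, and the groups overlapped. It is the last annotated gene on the chromosome, and a 50-base read has 67 positions at which it touches mt-Tp and no other gene, against 56 for mt-Tn, 51 for mt-Tc and 9 to 26 for the remaining tRNA genes. Counts per such position over the 10 libraries were 160 for mt-Tp, 3.25 for mt-Tn, 4.90 for mt-Tc and 8.16 for mt-Te. The cause of the high count of mt-Tp was not tested. The 8 tRNA genes on the minus strand held 98.9% of the tRNA counts, and without mt-Tp they held 752 counts against 132 on the 14 plus-strand genes. mt-Te, the glutamate tRNA gene between mt-Nd6 and mt-Cytb, was at 0.416 and 0.261 CPM in WT refed, 0.336, 0.530 and 0.207 in WT fasting and 0.457 to 1.02 in NAMPT LKO fasting livers. It passed the filter of 1 CPM in at least 1 library through library 5 of the NAMPT LKO fasting group alone. Of the other tRNA genes none passed, and mt-Ts2 had no count in any library.

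WT fasting and WT refed livers were compared first, to ask how the fasting state differs from refeeding in mice with intact Nampt. No mitochondrial gene was called by edgeR's quasi-likelihood test at an adjusted p of 0.05, among the 17 that passed the filter, where 7.04% of all 13446 genes tested were called. At an unadjusted p under 0.05 the count was 0 of 17, with 22.3% of all genes. DESeq2 and voomWithQualityWeights called 0 as well, where they called 12.3% and 24.8% of all genes. Of the 13 coding genes, 11 had a lower mean in WT fasting livers, with a median log2 fold change of -0.20 (range -0.43 to 0.24) against 0.04 over all genes. Among coding genes, 3 (mt-Nd1, mt-Co1 and mt-Nd5) had groups that did not overlap in CPM scaled by edgeR's trimmed mean of M-values (TMM), a share below the 49.6% of all genes. The log2 fold change of mt-Nd1 was -0.43 ± 0.415 (SE, edgeR adjusted p = 0.586) and that of mt-Rnr1 -0.54 ± 0.271 (SE, edgeR adjusted p = 0.274). Intervals were wide: that of mt-Co1 ran from -0.76 to 0.36 and that of mt-Nd2 from -0.93 to 1.03 (95%). All groups share 1 estimate of spread in this fit, so NAMPT LKO fasting library 5 enters the width. Without that library the SE was 0.230 for mt-Nd1, 0.254 for mt-Nd2 and 0.150 for mt-Co1. Their log2 fold changes were then -0.43, 0.05 and -0.20. The mitochondrial genes called were still 0 of 16, where 16.7% of all genes were called. Without library 3 of the WT fasting group the median was -0.05.

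NAMPT LKO fasting and WT fasting livers address whether loss of hepatocyte Nampt alters these transcripts in the fasted state. No mitochondrial gene was called, where 0.00744% of all genes tested were called (edgeR), namely Nampt itself with a log2 fold change of -2.81 ± 0.225 (SE, edgeR adjusted p = 0.00102). All 13 coding genes had a higher mean in NAMPT LKO fasting livers, with a median log2 fold change of 0.43 (range 0.07 to 0.69) against 0.00 over all genes, and every coding gene overlapped between groups (0 of 13, against 3.99% of all genes without overlap). The genes share libraries and a precursor, so 13 values are not 13 independent ones. At an unadjusted p under 0.05 there was 1 of 17, with 6.04% of all genes. It was mt-Te, which entered the test through a single NAMPT LKO fasting library, so that its difference is not independent of the filter. DESeq2 and voomWithQualityWeights called 0 at the adjusted threshold, where they called 0.157% and 0.00744% of all genes.

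The complex I genes ranged widely, from 0.21 for mt-Nd3 (95% interval -0.41 to 0.83) to the highest values among the coding genes. The log2 fold change was 0.69 for mt-Nd2 (95% interval -0.11 to 1.49), 0.69 for mt-Nd5 (-0.04 to 1.42) and 0.67 for mt-Nd6 (-0.08 to 1.42). It was 0.53 for mt-Cytb (-0.13 to 1.19), 0.22 for mt-Co1 (-0.23 to 0.67) and 0.02 for mt-Tp (-0.42 to 0.45). Among the rRNAs it was 0.48 for mt-Rnr1 (-0.01 to 0.97) and 0.33 for mt-Rnr2 (-0.24 to 0.90). The edgeR adjusted p of each was 0.826 or above. All of these intervals include 0, so a difference of either sign was not excluded for any of them.

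**Figure D3:**
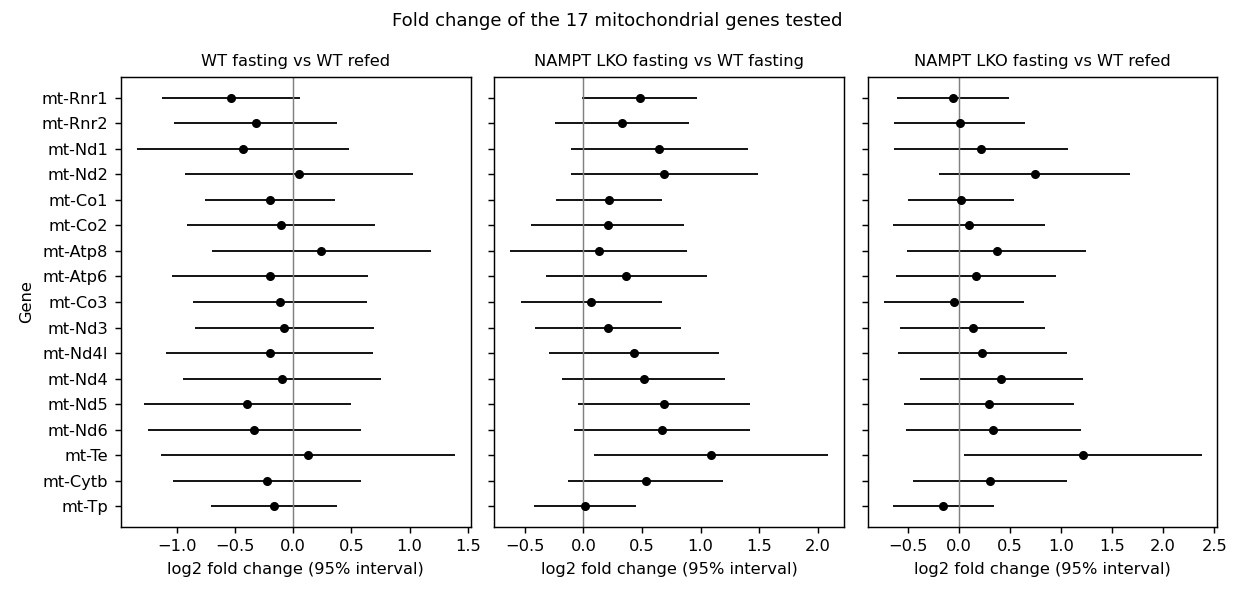
Log2 fold change (point) and 95% interval (line) of the 17 mitochondrial genes that passed the filter, in the 3 comparisons, first-named group minus second. Intervals include 0 for all genes except mt-Te in both NAMPT LKO fasting comparisons, which passed the filter only through a NAMPT LKO fasting library, and no gene was called after adjustment.

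The size of the higher means moved with single libraries. Without NAMPT LKO fasting library 5 the median log2 fold change of the coding genes against WT fasting was 0.05, with 9 of 13 above 0, and without WT fasting library 3 it was 0.28, with 13 of 13 above 0. Without both it was -0.10, with 6 of 13 above 0. mt-Nd2 moved from 0.69 to 0.30 without library 5 and to 0.06 without both. mt-Co3 moved from 0.07 to -0.23 without library 5 and to -0.27 without both. Weighting by voomWithQualityWeights, which gave library 5 a weight of 0.154, put the median at 0.00, and removing each library's trend with GC content put it at 0.28.

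**Figure D4:**
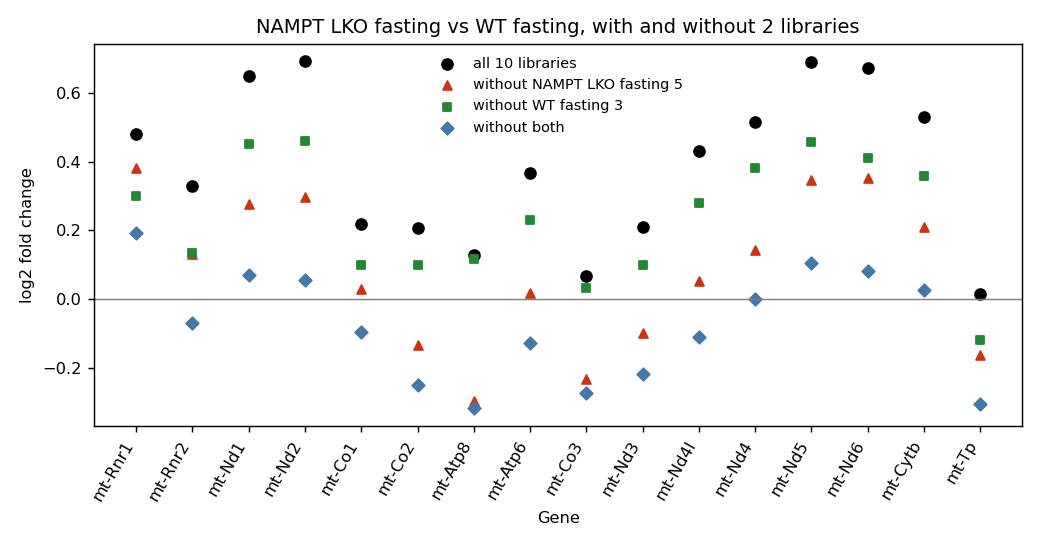
Log2 fold change of 16 mitochondrial genes in NAMPT LKO fasting against WT fasting livers from all 10 libraries (circles), without NAMPT LKO fasting library 5 (triangles), without WT fasting library 3 (squares) and without both (diamonds). The median of the 13 coding genes goes from 0.43 to 0.05, 0.28 and -0.10.

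Library 5 was not raised evenly. Over the median of the other 4 NAMPT LKO fasting libraries, its CPM was 2.15 times for mt-Nd2, 2.16 for mt-Atp8, 2.08 for mt-Nd1, 2.02 for mt-Nd4 and 1.85 for mt-Cytb. The ratio was 1.43 for mt-Co1, 1.46 for mt-Rnr2, 1.11 for mt-Rnr1 and 1.36 for mt-Tp. In library 5 mt-Rnr1 was at 4508 CPM, within the 3017 to 4670 CPM of the other NAMPT LKO fasting libraries, whereas mt-Rnr2 was at 12530 CPM, above their 6890 to 10483 CPM. In WT fasting library 3, CPM over the mean of the other 2 was, among the coding genes, lowest for mt-Nd6 (0.505), mt-Nd2 (0.559) and mt-Nd5 (0.559) and closest to 1 for mt-Atp8 (0.992) and mt-Co3 (0.950). mt-Co1 held 30.5% of the coding counts there, the highest of all libraries, and 18.3% in NAMPT LKO fasting library 5, the lowest.

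NAMPT LKO fasting against WT refed livers gave 0 of 17 mitochondrial genes called, where 11.2% of all genes were called (edgeR). At an unadjusted p under 0.05 it was 1 of 17, with 26.1% of all genes, and this was again mt-Te, which the filter kept through NAMPT LKO fasting library 5. The median log2 fold change of the coding genes was 0.23 (12 of 13 above 0) against 0.03 over all genes, and mt-Nd2 was the one coding gene without overlap, with 33.5% of all genes. For mt-Nd2 the log2 fold change was 0.74 ± 0.423 (SE, edgeR adjusted p = 0.303). mt-Te had 41 counts in library 5, its highest. Without NAMPT LKO fasting library 5 the coding median turned to -0.15, with 3 of 13 above 0. Without that library and WT fasting library 3, mt-Tp was called, at -0.33 ± 0.098 (SE, edgeR adjusted p = 0.0369), as 1 of 16 mitochondrial genes, where 25.1% of all genes were called in that fit. This comparison shares its libraries with the other 2, so the 3 are not independent.

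Ratios between mitochondrial genes do not depend on the library total. The count of mt-Nd2 over that of mt-Nd1, its upstream neighbour among coding genes, was 1.17 and 0.994 in WT refed livers, 1.54, 1.54 and 1.38 in WT fasting livers and 1.47 to 1.59 in NAMPT LKO fasting livers. Both WT refed values were below all 8 fasted libraries, and the 2 libraries with the extreme mitochondrial shares, at 1.59 and 1.38, lay with the other fasted ones. In share of coding counts, mt-Nd2 had 15.4% and 14.1% in WT refed, 18.3%, 18.5% and 15.6% in WT fasting and 17.6% to 21.9% in NAMPT LKO fasting livers. mt-Nd1 had 13.2% and 14.2%, then 11.9%, 12.0% and 11.2%, then 11.3% to 13.7% in the same order. The pair was chosen after the values were seen, so the ratio is a description without a test, and the WT refed group has 2 livers.

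The count of mt-Co1 over that of mt-Nd2 was 1.69 and 1.94 in WT refed, 1.46, 1.36 and 1.96 in WT fasting and 0.837 to 1.46 in NAMPT LKO fasting livers. Here WT fasting library 3 lay just above the WT refed livers, and the WT fasting range overlapped that of NAMPT LKO fasting. The NAMPT LKO fasting values were all below those of WT refed. Several pairs were computed and no share over all gene pairs, so this is a description without a test. GC content was 39.9% for mt-Co1 and 35.7% for mt-Nd2. NAMPT LKO fasting library 5 had the lowest ratio and the lowest correlation with GC content (-0.563). WT fasting library 3 had the highest of both (0.264). The part of GC content in this ratio was not tested. mt-Rnr2 over mt-Rnr1 was 2.26 and 2.22 in WT refed and 2.81, 2.47 and 2.52 in WT fasting livers. In NAMPT LKO fasting libraries 1 to 5 it was 2.28, 2.24, 2.11, 2.11 and 2.78. The LKO range covered the WT refed values and, through library 5 alone, part of the WT fasting ones.

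**Figure D5:**
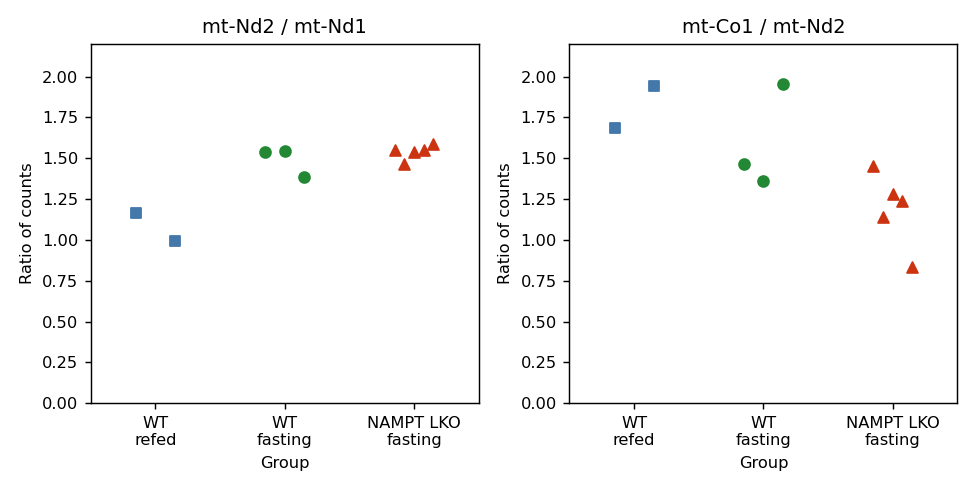
Ratio of counts, with 1 point per library, for mt-Nd2 over mt-Nd1 (left) and mt-Co1 over mt-Nd2 (right) in the 3 groups. On the left, WT refed livers stand at 0.994 and 1.17 and the 8 fasted livers at 1.38 to 1.59 and on the right WT refed livers at 1.69 and 1.94 lie above the NAMPT LKO fasting range of 0.837 to 1.46, with WT fasting livers overlapping both.

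Nuclear genes whose products copy, transcribe, process or regulate mitochondrial DNA and RNA were examined as a list of 56 symbols, of which 54 were tested. In WT fasting against WT refed livers 5 were called lower and 0 higher (edgeR), where 4.36% of all genes were called lower and 2.68% higher, and the list's median log2 fold change was -0.16. Among them were 3 of the 30 tested genes of RNA processing, stability and tails. Ptcd2, a pentatricopeptide protein of mitochondrial RNA processing, was at 33.7 and 36.2 CPM in WT refed and 18.6, 17.4 and 19.8 CPM in WT fasting livers, and its log2 fold change was -0.85 ± 0.110 (SE, edgeR adjusted p = 0.00183). Pde12, which removes poly(A) tails from mitochondrial RNA, was at 23.9 and 27.2 CPM in WT refed and 12.0, 10.2 and 12.0 CPM in WT fasting livers, a change of -1.10 ± 0.188 (SE, edgeR adjusted p = 0.00696). Neither gene's groups overlapped, where 49.6% of all genes had groups without overlap in this comparison. Mrm3, which methylates the large rRNA, fell by 0.78 on the log2 scale (edgeR adjusted p = 0.0278).

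Of the transcription and replication genes, Tfb1m, which methylates the small mitochondrial rRNA, fell by 0.80 (edgeR adjusted p = 0.0272) and Mgme1, an exonuclease of mitochondrial DNA, fell by 0.80 (edgeR adjusted p = 0.0392) on the log2 scale in WT fasting livers. Tfam, which packages mitochondrial DNA, had a log2 fold change of 0.11 ± 0.193 (SE, edgeR adjusted p = 0.791) and Polrmt, the mitochondrial RNA polymerase, 0.07 ± 0.251 (SE, edgeR adjusted p = 0.898), and neither was called. The count of 5 became 1 without WT refed library 2 and 15 without NAMPT LKO fasting library 5, and it was 21 by voomWithQualityWeights and 11 by DESeq2, so the number of these genes rests on single libraries and on the test. The share of all genes called moved too, from 7.04% to 0.798%, 16.7%, 24.8% and 12.3% in these 4 fits. The list's count was 2 without WT refed library 1 or WT fasting library 1, and 3 without WT fasting library 2 or 3.

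In NAMPT LKO fasting against WT fasting livers 0 of the 54 were called by edgeR, where 0.00744% of all genes were. At an unadjusted p under 0.05 by edgeR it was 0 of the 54, with 6.04% of all genes. DESeq2 and voomWithQualityWeights called 0 of the list, where they called 0.157% and 0.00744% of all genes. The lowest p values were those of the coactivators Ppargc1b (0.36 ± 0.174, SE; edgeR adjusted p = 0.836) and Ppargc1a (0.62 ± 0.337, SE; edgeR adjusted p = 0.836), followed by Mrm2 (-0.29 ± 0.158, SE; edgeR adjusted p = 0.836), on the log2 scale. In NAMPT LKO fasting against WT refed livers 10 were called lower and 1 higher, where 6.58% and 4.65% of all genes were. Ppargc1a, a coactivator of nuclear genes for mitochondrial proteins, was the higher one, at 9.52 to 32.2 CPM against 6.69 and 7.40 CPM in WT refed livers, with a log2 fold change of 1.76 ± 0.420 (SE, edgeR adjusted p = 0.0236), and library 5 held its highest value. Ptcd2 (-0.79), Pde12 (-1.21), Mrm3 (-0.91), Tfb1m (-0.71) and Mgme1 (-0.71) were lower here also, as log2 fold changes against the same 2 WT refed livers. Mrm2, which methylates the large rRNA, had -0.94, Elac2, which cuts the ends of tRNA precursors, -0.54, and Tbrg4, a regulator of mitochondrial RNA stability, -0.47. Trmt5, a tRNA methyltransferase, had -0.69 and Tefm, the elongation factor of mitochondrial transcription, -0.72. This count was 2 without WT refed library 1, 3 without WT refed library 2 and 18 without NAMPT LKO fasting library 5, where 2.57%, 1.69% and 21.2% of all genes were called.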

How the data were processed

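Polyadenylated liver RNA of 10 mice was sequenced as single 50-base reads. The authors deposited counts per Ensembl gene of uniquely aligned reads (STAR 2.5.1a, featureCounts 1.4.6-p5 and GRCm38 per the submitters' processing notes), with deposited CPM and deposited RPKM values, which match the counts over library total and gene length. Groups come from the labels.

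The tests covered 13446 genes, each of which exceeded 1 CPM in 1 or more libraries, after removal of nuclear rRNA genes. TMM-normalized counts of all 10 libraries entered 1 fit of the quasi-likelihood test of edgeR 4.0.16 in R 4.3.3 (legacy setting), with Benjamini-Hochberg adjustment over all genes. The tests were run on simulated counts for NAMPT LKO fasting against WT fasting, with 200 genes changed. There edgeR recovered 66% of the genes changed by 1 on the log2 scale and 94% of those changed by 2. Where no gene was changed, edgeR called 0 genes, voomWithQualityWeights 0 and DESeq2 11. Intervals are 95% and cover the spread between these libraries. Alternatives used DESeq2 1.42.0, limma 3.58.1 (voomWithQualityWeights), other scalings and filters, removal of GC trends (loess span 0.5) and left-out libraries. Every 50-base window of a mitochondrial transcript was searched in GENCODE M21 transcripts of other genes. All rRNA and coding genes are named, tRNA genes where they passed the filter, called genes of the nuclear list, and the lowest p values where none was called. The members and gene lists were chosen with earlier results of these data known. No replicate pair differed by as little as sampling noise.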

Additional observations from a re-analysis of the deposited data

Results flagged for a closer look

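The group of 5 NAMPT LKO fasting livers was checked for values far from the others, by the gap between the end value and its neighbour over the whole range, in 20 quantities (Dixon's limit for 5 samples is 0.71). Library 5 passed the limit in 10 of them, where about 1 in 20 is passed by chance for a single quantity, and all 10 are values of the same library. The mitochondrial genes took 21.1% of its counts, with the others at 10.4% to 12.9%. mt-Nd1 was at 26705 CPM in library 5 against 10846 to 15061 CPM in the others. For mt-Nd2 the level was 42468 CPM, above the 16852 to 22221 CPM of the other 4 livers. mt-Co2 was at 511 CPM in library 5 against 216 to 299 CPM in the others. For mt-Atp8 the level was 152 CPM, above the 51.1 to 76.3 CPM of the other 4 livers. mt-Nd3 was at 65.3 CPM in library 5 against 30.4 to 38.5 CPM in the others. For mt-Nd4l the level was 194 CPM, above the 72.5 to 104 CPM of the other 4 livers. mt-Nd4 was at 14968 CPM in library 5 against 6310 to 7857 CPM in the others. For mt-Nd5 the level was 23796 CPM, above the 10604 to 13661 CPM of the other 4 livers. mt-Cytb was at 42180 CPM in library 5 against 19343 to 24935 CPM in the others. The quantities that did not pass include both rRNA genes, mt-Co1, mt-Co3, mt-Atp6, mt-Nd6, mt-Tp, mt-Te, Nampt and the complex I share of coding counts. The WT groups of 2 and 3 livers were not checked in this way.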

How the results depend on the processing

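The count of mitochondrial genes called was 0 in each fit run, with 1 exception given below, and the coding-gene median of WT fasting against WT refed livers was below 0 in each. At an unadjusted p under 0.05 the count was 1 in each of the NAMPT LKO fasting comparisons. Over all 17 genes tested, the sign of the log2 fold change turned in 13 of 352 refitted values for WT fasting against WT refed, 49 of 401 for NAMPT LKO fasting against WT fasting and 49 of 353 for NAMPT LKO fasting against WT refed. The refitted coding median ran from -0.29 to -0.05, from 0.05 to 0.59 and from -0.15 to 0.36 in these 3 comparisons with single libraries left out. Where a WT refed library was left out, the remaining one was assumed to vary like the other groups. Depth limits the tRNA genes, of which 2 could be tested. The causes of the changes below were not tested.

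Without both NAMPT LKO fasting library 5 and WT fasting library 3, a choice made after seeing the data, the coding median of NAMPT LKO fasting against WT fasting was -0.096. In that fit the log2 fold changes were -0.068 for mt-Rnr2, -0.096 for mt-Co1, -0.272 for mt-Co3, -0.217 for mt-Nd3 and -0.304 for mt-Tp, and 1 mitochondrial gene (mt-Tp) was called for NAMPT LKO fasting against WT refed, where 25.1% of all genes were. The nuclear list then had 13 genes called for WT fasting against WT refed and 21 for NAMPT LKO fasting against WT refed. In that fit 17.3% and 25.1% of all genes were called. Under voomWithQualityWeights the list had 21 and 25 genes called in the same order, where 24.8% and 31.8% of all genes were. With those weights, in NAMPT LKO fasting against WT fasting, mt-Co1 was at -0.023, mt-Co3 at -0.246, mt-Nd3 at -0.166 and mt-Tp at -0.186. For WT fasting against WT refed the list had 11 genes called under DESeq2 and 8 with library size alone as the scale. Of all genes, 12.3% and 7.1% were called in these fits. With library size alone mt-Nd2 was at -0.017 in that comparison and, against WT fasting, mt-Tp of NAMPT LKO fasting livers was at -0.035. Removal of the GC trend put mt-Co3 at -0.097, mt-Nd3 at -0.020 and mt-Tp at -0.059 in NAMPT LKO fasting against WT fasting.

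With single libraries left out, mt-Nd2 ran from -0.144 to 0.287 in WT fasting against WT refed, and in NAMPT LKO fasting against WT fasting mt-Co3 ran from -0.230 to 0.235, mt-Nd3 from -0.099 to 0.422 and mt-Tp from -0.161 to 0.158. Without NAMPT LKO fasting library 5 the nuclear list had 15 genes called in WT fasting against WT refed and 18 in NAMPT LKO fasting against WT refed. In that fit 16.7% and 21.2% of all genes were called. Leaving out libraries for this list, and the Nampt refits, were added after seeing the data.

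Replicate numbers 1 to 3 are shared by WT fasting and NAMPT LKO fasting livers and mark different mice. Deviations of same-numbered libraries correlated at 0.0751, 0.170 and 0.0994, so the numbers were not taken as pairs, although each library correlated best with its own number. With the replicate block, 0 mitochondrial genes were called and the coding median was 0.06, as it was in the fit of libraries 1 to 3 with no replicate block, and it was 0.05 with the replicate block and the GC trend removed. In these 3 fits, in that order, mt-Co1 was at -0.019, -0.030 and -0.032, mt-Co3 at -0.269, -0.273 and -0.282, mt-Nd3 at -0.131, -0.150 and -0.149, and mt-Tp at -0.184, -0.201 and -0.193. Nampt was at -2.78, -2.87 and -2.79 and no longer passed the adjusted threshold.

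Measured against nuclear counts, the mean WT refed mitochondrial share was 13.99%, and over coding genes alone it was 10.79%. In RPKM in place of counts, complex I took a mean of 55.18%, 54.53% and 58.83% of the coding total in WT refed, WT fasting and NAMPT LKO fasting livers. The SDs were 0.565, 2.96 and 2.62 in that order. WT fasting livers ran from 51.1% to 56.4% and overlapped the 55.4% to 62.7% of NAMPT LKO fasting livers, whose highest value was that of library 5.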
